A study of Mus musculus with 9 samples.

Results

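The introns described here carried many reads in mouse embryonic stem cells and had nearly the same number after 2 h of Clk kinase inhibition as after 2 h of solvent. They were chosen by 2 values of the authors' deposited table. The mean of the KH-CB19 and DMSO read counts at 2 h was at least 100, and KH-CB19 over DMSO, as a log2 ratio, lay between -0.15 and 0.15, a ratio of 0.901 to 1.11. The rule held for 277 introns in 259 genes, out of 970 introns in 816 genes that reached the minimum, 3454 introns in 2427 genes with 2 h values, and 22228 introns in 7016 genes listed in all. Their 2 h reads and ratio therefore describe how they were chosen and are not a finding.

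Polyadenylated RNA was sequenced from v6.5, an embryonic stem cell line of the mouse grown with serum and leukaemia inhibitory factor on gelatin. The 4 groups were KH-CB19 harvested at 2 h, KH-CB19 at 0 h, DMSO at 2 h and DMSO at 0 h, with 2 libraries each, which the labels call independent biological replicates. KH-CB19 is a small-molecule inhibitor of Clk kinases, stated in the labels as 10 mM, a unit that no other source used here bears out, and DMSO (dimethyl sulfoxide) is its solvent, added in equal volume to the control cells. All groups share the 1 cell line, and RNA integrity numbers lay between 8.8 and 9.4. The deposited values are means over the 2 libraries of a group, so no spread between libraries stands beside any value below. Differences are described, and no test between groups was run here. In the 2 h values, more transcripts of a gene and a larger share of them unspliced cannot be told apart.

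Detained introns are introns that remain in polyadenylated, otherwise spliced transcripts, which stay in the nucleus. Clk kinases phosphorylate SR proteins, splicing factors whose domains of arginine and serine repeats help the spliceosome to recognise exons, and their activity can set whether such an intron is later removed. The table lists 2 h values only for introns that its authors placed in this class.

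The exon ends that splicing of a detained intron would join are short, and those of 7 members are shown because these members were among the 10 with most reads, the 3 longest or the 3 shortest and lay between coding exons of a matched transcript. Each line gives the last 15 bases of the exon before the intron and the first 15 bases of the exon after it, 5′ to 3′ in the direction of the gene, from GENCODE M21 transcripts on GRCm38. Capitals mark the last 3 bases of the upstream exon and the first base of the downstream exon.
Arglu1 intron 3: caaaaagccagaGAGAggaagctggcgcgt
Ttc17 intron 2: ctcaaagaactgGAGAaacagctagttgct
Gpi1 intron 9: ttcgagttctggGATTgggtaggtggccgc
Chka intron 2: gcaatcttaaagATGAggtcctgtaataaa
Bard1 intron 9: tcctgaagtttgATTGggtgaaagcctgtc
Ift80 intron 18: ctataactgggaAAGGgcgctggagttggc
Luc7l3 intron 15: acattaaatctgAAGTgcagcgtaagtatg
The letters differ from one member to the next. Over the 204 members that could be matched to an annotated intron, 119 (58.3%) followed an exon that ends in AG and 98 (48.0%) preceded an exon that starts with G. In matched well-covered introns that rose, 59.0% followed an exon ending in AG and 45.8% preceded an exon starting with G. In those that fell the shares were 54.4% and 29.8%, the second being 17 of 57 introns.

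Among the 970 well-covered introns, the rule took 28.6%. Of all 970, the authors' deposited table called 10.7% higher and 6.08% lower in KH-CB19 than in DMSO at 2 h at an adjusted p below 0.05, which left 530 introns past the ratio limit without a call. These 3 sets, called here the introns that rose (104), fell (59) or were neither called nor within the limit (530), are the comparison for everything that follows. No member was called, and adjusted p lay between 0.706 and 1 in the authors' deposited table, with a median of 0.933. The ratio was above 1 in 150 members and below 1 in 127. Members held 20.4% of the reads of all introns with 2 h values in KH-CB19 and 21.4% in DMSO.

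**Figure D1:**
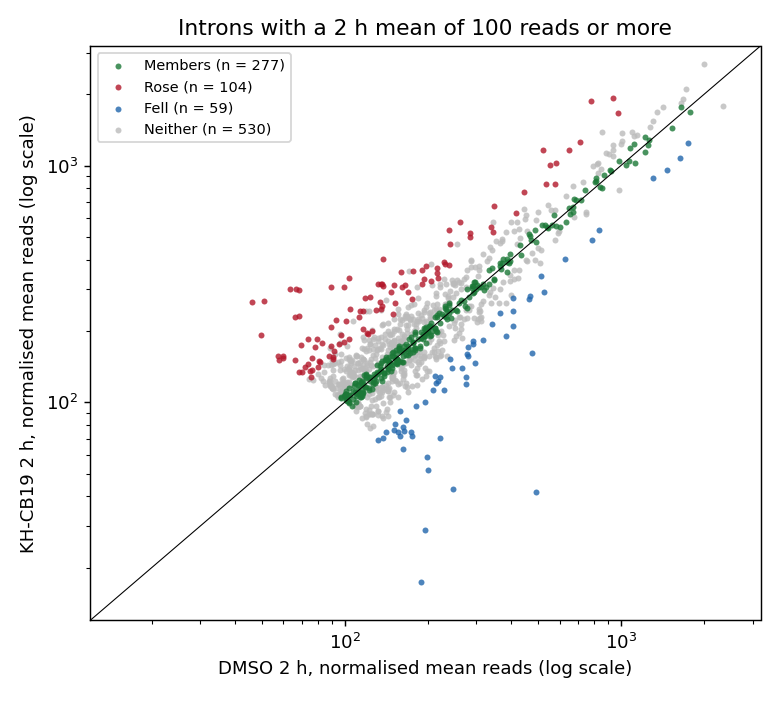
Normalised mean reads at 2 h in KH-CB19 (vertical, log scale) against DMSO (horizontal, log scale) for the 970 introns with a mean of at least 100, 1 point per intron, each value a mean over 2 libraries. The 277 members lie along the line of equal reads by choice, at means between 100.5 and 1735, while the 104 introns that rose lie above it and the 59 that fell below it.

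The reads at 2 h ran from a mean of 100.5 to 1735, with a median of 175 and quartiles of 130 and 301. The most covered member was intron 20 of Rps24, a ribosomal protein of the small subunit (mm9 chr14:25313292-25314651, plus strand), with 1689 reads in KH-CB19 and 1782 in DMSO. It is 1360 bp long and lies in the 3′ UTR of its matched transcript. Intron 2 of Ywhae, the epsilon form of the 14-3-3 adaptor proteins, had 1770 reads in KH-CB19 and 1649 in DMSO (chr11:75546594-75565481, plus strand), and at 18888 bp it was the longest member. Ribosomal protein genes have processed copies of near-identical sequence, and the placing of reads that such copies share is not given in the sources used here.

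Splicing and metabolic genes follow in that order of coverage. Intron 3 of Arglu1, an arginine- and glutamate-rich nuclear protein, had 1436 reads in KH-CB19 and 1534 in DMSO (chr8:8681949-8683747, minus strand). Intron 2 of Ttc17, a tetratricopeptide repeat protein, had 1314 and 1227 reads in KH-CB19 and DMSO (chr2:94219016-94226248, minus strand). Both lie between coding exons as the second intron of their matched transcripts. Intron 9 of Gpi1, the glycolytic enzyme glucose-6-phosphate isomerase, had 1280 reads in KH-CB19 and 1260 in DMSO (chr7:34993330-35000974, minus strand), and another annotated exon lies within it. Intron 17 of Srrm2, an SR-related component of the active spliceosome, is 132 bp long and had 1222 reads in KH-CB19 and 1257 in DMSO. These 4 introns range in length from 132 to 7645 bp.

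The remaining 4 of the 10 most covered lay on both sides of a ratio of 1, within the limit by choice, and differed in place. Intron 21 of Eif4g1, the scaffold of the cap-binding translation complex, is 105 bp long and had 1142 reads in KH-CB19 and 1223 in DMSO. Intron 10 of 8430410A17Rik had 1229 reads in KH-CB19 and 1112 in DMSO. Intron 22 of Celf1, a splicing regulator that binds GU-rich RNA, had 1181 and 1077 reads in KH-CB19 and DMSO. It is the last of 14 introns of its matched transcript, in the 3′ UTR. Intron 2 of Chka, choline kinase alpha, had 1026 reads in KH-CB19 and 1124 in DMSO, across 10975 bp. The ratios nearest to 1 were those of intron 28 of Sf3b1, the branch-site protein of the U2 particle, with 717.9 reads in KH-CB19 and 718.1 in DMSO, and of intron 2 of Aars, alanyl-tRNA synthetase, with 184.5 and 184.3.

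At the edges of the rule the values run on without a break. Just inside the ratio limit, intron 33 of Kif15 (a mitotic kinesin) had 250.7 reads in KH-CB19 and 277.7 in DMSO, and intron 11 of Ptdss2 (phosphatidylserine synthase) had 132.0 and 119.0. Just outside, intron 29 of Fubp3 had 427.7 reads in KH-CB19 and 474.7 in DMSO, and intron 7 of Phb2 had 225.5 and 203.1. Just inside the minimum, intron 5 of Rpf1 had 103.9 reads in KH-CB19 and 97.2 in DMSO. Just below it, intron 3 of Coq5 had 96.6 reads in KH-CB19 and 99.8 in DMSO.

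At 0 h, in libraries that the rule did not use, reads in nearly all members exceeded what the authors expected. The table gives an observed and an expected mean count for each group, and how the expectation was made is not given in the sources used here. In the authors' deposited table the excess passed an adjusted p of 0.05 in 276 of 277 members (99.6%) in KH-CB19 and in 276 (99.6%) in DMSO, where 27.6% of all introns with a value passed in KH-CB19 and 28.2% in DMSO. The same shares were 93.7% and 98.7% over introns with 2 h values, and 99.1% and 99.9% over the well-covered ones. The excess at 0 h may be what placed introns in the detained class, so a share near that of the other well-covered introns is no property of the members.

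The size of the excess was also like that of the comparison sets. Members had a median of 3.53 times the expected reads in KH-CB19 (quartiles 2.57 and 5.75) and 3.52 times in DMSO (quartiles 2.60 and 5.43). Introns that rose had 3.54 times in KH-CB19 and 3.48 in DMSO, those that fell 3.17 and 3.08, and those neither called nor within the limit 3.58 and 3.60. Introns without 2 h values stood at 1.27 and 1.23. More than 10 times the expected reads were found in 28 members (10.1%) in KH-CB19 and 32 (11.6%) in DMSO. The share was 4.81% and 3.85% in introns that rose, 1.69% in both groups in introns that fell, and 10.8% and 10.2% in the neither set. Over all 970 well-covered introns it was 9.38% in both groups, near the shares of the members. The sets also differ in introns of at most 200 bp. These made up 6.14% of members, 8.68% of the neither set, 1.92% of introns that rose and 1.69% of those that fell.

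**Figure D2:**
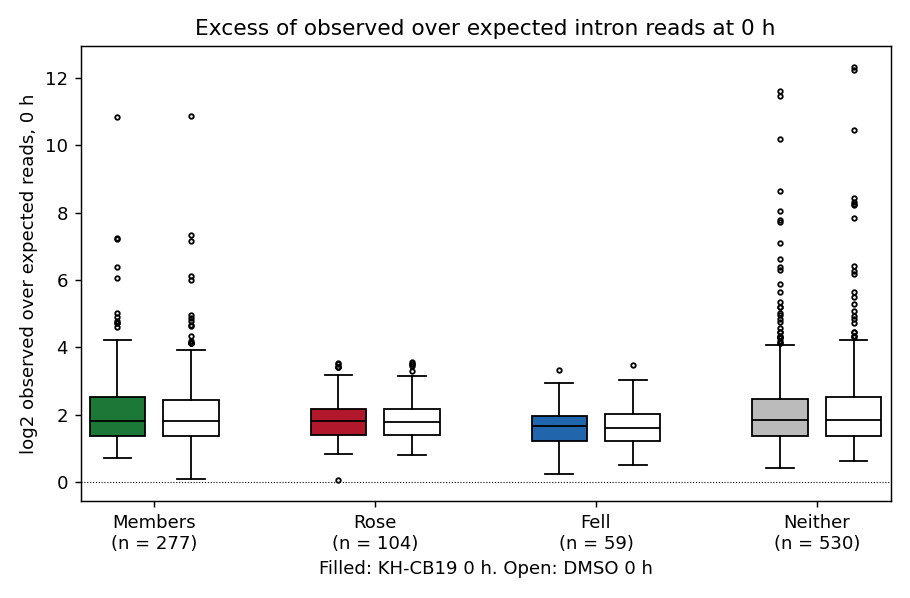
Log2 of observed over expected reads at 0 h (vertical) for members and the 3 comparison sets, with KH-CB19 as filled boxes left of DMSO as open boxes. Boxes give the quartiles and median over introns, whiskers reach 1.5 box lengths and circles are introns beyond them. The medians lie close together in all 4 sets, and the upper circles belong mostly to members and to introns neither called nor within the limit.

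The largest excesses were in very short introns. Intron 21 of Eif4g1 had 1030 observed against 7.0 expected reads in KH-CB19, and 1446.5 against 9.0 in DMSO. Intron 35 of Rif1, a protein of replication timing and double-strand break repair that stem cells express highly, had 612.0 against 4.0 in KH-CB19 and 864.0 against 6.0 in DMSO, within 121 bp. Intron 2 of Ddx21, an RNA helicase of ribosome production, had 919.0 observed reads in KH-CB19 and 923.0 in DMSO with an expected mean of 0.5 in each, the lowest listed, so that no ratio is given. Among the 17 members of at most 200 bp, 12 exceeded 10 times the expectation in KH-CB19 and 12 in DMSO, with medians of 24.6 and 20.1 times. The 139 members over 1000 and up to 5000 bp had medians of 3.53 and 3.52 times, and 5 and 8 of them exceeded 10 times. Short introns of all 970 showed the same, with medians of 14.3 in KH-CB19 and 13.9 in DMSO over 66 introns of at most 200 bp, so this order by length was not particular to the members.

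The 2 members that did not pass were SR-related or helicase genes. Intron 5 of Srsf11, an SR-related protein, had 71.0 observed and 43.5 expected reads in KH-CB19 and 134.0 and 64.5 in DMSO. Its adjusted p in the authors' deposited table was 0.0723 in KH-CB19. Intron 2 of Ddx5, a helicase that joins splicing complexes, had 669.5 observed and 271.5 expected reads in KH-CB19, against 365.5 and 338.5 in DMSO. Its adjusted p in the authors' deposited table was 0.701 in DMSO. The next lowest excess in DMSO was in intron 2 of Cyb5r1, a cytochrome b5 reductase, with 272.5 observed and 135.5 expected reads in KH-CB19 and 276.0 and 188.5 in DMSO.

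At 0 h, KH-CB19 and DMSO cells were harvested at once, and their unscaled counts differed throughout: the median log2 ratio over all introns was -0.32. Relative to that median, members had a median log2 ratio of -0.045 and quartiles of -0.17 and 0.13. Introns that rose had -0.063, those that fell -0.15, and those in the neither set -0.028. A share of 49.1% of members (136) lay within 0.15 of the median of all introns, against 42.3% of those that rose, 45.8% of those that fell and 51.3% of the neither set. The median of the members was 0.0037 when ratios of observed to expected reads were compared instead, so its sign depends on the scaling.

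**Figure D3:**
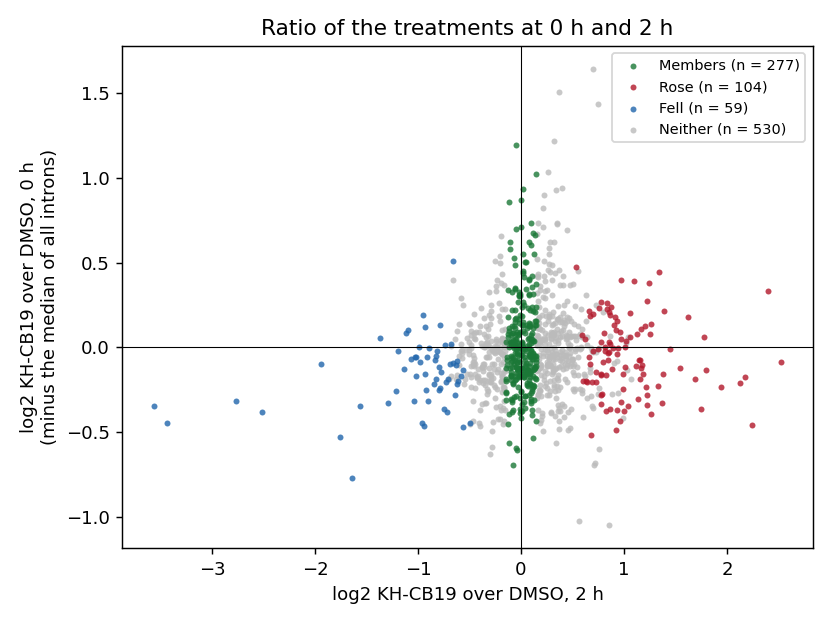
Log2 ratio of KH-CB19 to DMSO at 0 h, less the median of all introns (vertical), against the same ratio at 2 h (horizontal), 1 point per well-covered intron. The 277 members form a narrow band at 2 h by choice, and at 0 h they run from -0.70 to 1.20.

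Some members stood far from the others at 0 h. Relative to the median of all introns, 19 members were more than 0.5 higher in KH-CB19 at 0 h (6.86%, against none of the introns that rose, 1.69% of those that fell and 4.53% of the neither set), and 5 were more than 0.5 lower. Over all 970 well-covered introns 4.54% were more than 0.5 higher, and over all introns with both values 6.86%. The last share is taken at lower depth. All introns had a median of 24 observed reads in KH-CB19 and 26 in DMSO at 0 h, against 171 and 213 in members. The 5 lower members made up 1.81%, against 0.962% of introns that rose, 3.39% of those that fell, 1.51% of the neither set and 4.82% of all introns. The highest was Ddx5 intron 2 at 1.20, where the expected reads did not move with the observed ones. Intron 2 of St13, a co-chaperone of Hsp70, had 658.0 observed reads in KH-CB19 and 431.0 in DMSO at 0 h, and 549.7 and 541.8 at 2 h. Intron 8 of Atp5a1, the alpha subunit of mitochondrial ATP synthase, had 311.0 and 191.5 at 0 h, and 254.9 and 230.8 at 2 h. In these 3 members the KH-CB19 group was the higher one at 0 h, straight after the addition. Of the 19 members, 6 bear the listed number 2 in their gene, as do 23 of all 277 (8.30%) and 10.4% of all introns. The listed number is not always the rank in the matched transcript: intron 2 of St13 is the only intron there.

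The 3 lowest were in Hnrnpa2b1, Psip1 and Srsf11. Intron 36 of Hnrnpa2b1, an abundant hnRNP, had 479.5 observed reads in KH-CB19 and 971.0 in DMSO at 0 h, and 634.1 and 670.0 at 2 h. Intron 11 of Psip1, a chromatin-bound coactivator, had 182.0 and 346.0 at 0 h, and 245.6 and 252.1 at 2 h. Srsf11 intron 5 was the third, at -0.59. In all 3 the expected reads were also lower in KH-CB19. Over all members, the ratio of observed to expected differed by more than 0.5 on the log2 scale in 5 of 277 (1.81%). That share was 0.962% in introns that rose, 3.02% in the neither set and 7.94% in all introns, and no intron that fell differed so much. The ratio of observed to expected differed by at most 0.15 in 204 members (73.6%), against 74.0% of introns that rose, 84.7% of those that fell and 75.3% of the neither set.

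By their medians, members were shorter than well-covered introns that changed, a difference given with no test. They were longer than all introns with 2 h values, whose median was 1562 bp. The median length of members was 2067 bp (quartiles 764 and 3917, range 103 to 18888), against 2574 bp in introns that rose, 2904 bp in those that fell and 2174 bp in the neither set. Of the members, 84 (30.3%) were at most 1000 bp long, against 8.65% of introns that rose, 22.0% of those that fell and 28.9% of the neither set. The 17 members of at most 200 bp made up 6.14%, and the 10 above 10000 bp 3.61%. Every intron with 2 h values had at least 10.03 reads per kb, so coverage and length are linked within the table. Members had a median of 99.6 reads per kb at 2 h, against 79.7 in introns that rose, 61.3 in those that fell and 83.8 in the neither set.

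**Figure D4:**
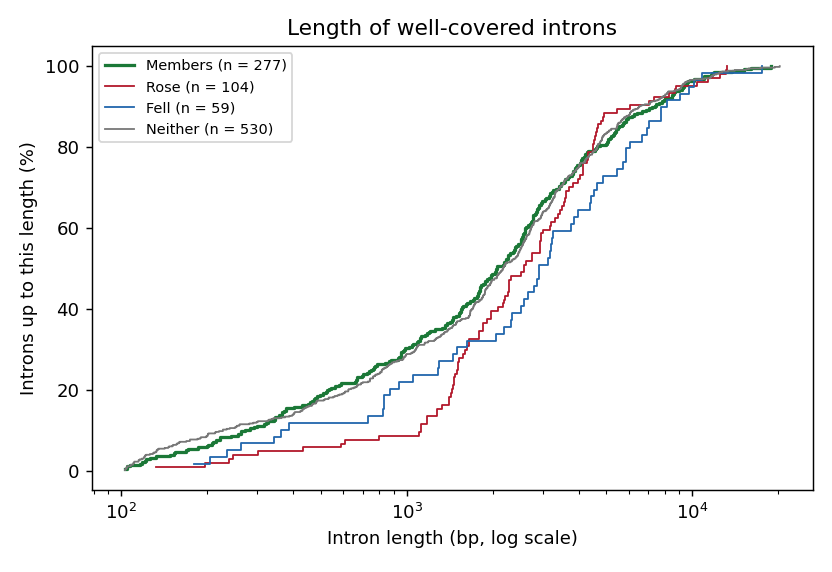
Share of introns up to a given length (vertical, percent) against length in bp (horizontal, log scale) for members and the 3 comparison sets. The line of the members follows that of introns neither called nor within the limit, while introns that rose have few below 1000 bp (8.65%, against 30.3% of members).

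The extremes in length were spread over unrelated functions. After Ywhae, the longest members were intron 18 of Ift80, a protein of transport within cilia, at 16003 bp with 228.1 reads in KH-CB19 and 216.3 in DMSO, and intron 9 of Bard1, the partner of Brca1, at 15221 bp with 154.1 and 153.7. Intron 7 of Yap1, the effector of the Hippo pathway, at 11953 bp, had 139.9 reads in KH-CB19 and 143.3 in DMSO. The shortest were intron 2 of Slc20a1, a phosphate transporter, at 103 bp with 185.0 reads in KH-CB19 and 192.1 in DMSO, and intron 15 of Luc7l3, a protein related to a yeast U1 component, at 105 bp with 124.2 and 112.3. The rule asks for the same minimum of reads whatever the length. Median 2 h means were 242.9 in members of at most 200 bp and 161.4 in those over 1000 and up to 5000 bp. In members above 10000 bp the median was 203.3.

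Of the members, 204 (73.6%) matched an intron of GENCODE M21 by gene, chromosome, strand and length. The 73 without a match were shorter, with a median of 664 bp, against 2545.5 bp in those matched, so the positions describe the longer members more fully. Rank and place are those in the matched transcript, which can leave out introns of the gene. Intron 6 of Thrap3, for example, is the last of 3 introns there, though intron 9 of the gene lies downstream of it. Shares of first, last and later introns in all sets include such cases. Of the matched members, 9 (4.41%) were first introns, against none of 83 that rose, 5.26% of those that fell and 5.17% of the neither set. The share was 2.36% over all matched introns with 2 h values and 2.85% over all matched introns. Last introns made up 21 (10.3%) of the members, 1.20% of introns that rose, 1.75% of those that fell and 8.62% of the neither set. Past the midpoint of their transcript lay 70.6% of members, 61.4% of introns that rose, 50.9% of those that fell and 66.5% of the neither set. Among matched well-covered introns, the share past the midpoint was thus larger in members and the neither set than in introns that changed in either direction. The matched share itself differed: 73.6% of members, 76.6% of the neither set, 79.8% of introns that rose and 96.6% of those that fell. These positions therefore compare unlike parts of the sets. Over all matched introns with 2 h values, 5.69% were last introns and 73.4% lay past the midpoint. By the midpoint, members therefore did not lie further towards the 3′ end than that whole class.

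Most matched members, 177 (86.8%), lay between coding exons of the matched transcript, 10 in the 5′ UTR, 10 in the 3′ UTR and 7 in noncoding transcripts. The shares that follow are also of matched introns, which make up unlike parts of the sets. Introns of the 5′ UTR included intron 2 of Jarid2, a Polycomb cofactor, and intron 2 of Ube2d3, a ubiquitin-conjugating enzyme. Another annotated exon lay within 36 members (17.6%), against 18.1% of introns that rose, 21.1% of those that fell and 14.8% of the neither set. An annotated exon that spans the whole intron, the form that a retained intron takes in the annotation, existed for 33 members (16.2%), against 10.8% of introns that rose, 29.8% of those that fell and 17.0% of the neither set. Members with an annotated small RNA gene within them included intron 16 of Taf1d, a factor of RNA polymerase I transcription, with 789.4 reads in KH-CB19 and 743.3 in DMSO.

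Reads per length were also compared within genes. In 253 host genes that also have introns without 2 h values, the member had a median of 6.01 times the reads per length of the middle such intron at 0 h in DMSO, and more than any of them in 219 genes (86.6%). The minimum of 100 and the minimum of reads per kb in introns with 2 h values favour such an order, and it is not given for the other well-covered sets. Of the other introns with 2 h values in host genes of members, 55 were themselves well covered.

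Some members lay in genes of splicing regulators. Of 39 well-covered introns in genes of SR and SR-related proteins, 7 (17.9%) were members, 3 rose and 7 fell. For the kinases of the Clk, Srpk and Dyrk families no well-covered intron of 6 was a member, and 4 fell. Besides Arglu1, Srrm2, Srsf11 and Luc7l3, members lay in Srrm1, Sfrs18 and Thrap3. Intron 6 of Thrap3, an SR-related coactivator, had 189.9 reads in KH-CB19 and 195.4 in DMSO. The share of members in the SR list can be read against 28.6% over all well-covered introns.

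Members also lay in genes of other RNA-binding proteins. Of 24 well-covered introns in hnRNP and FET genes 7 (29.2%) were members, of 23 in core spliceosome genes 8 (34.8%), and of 30 in other splicing regulators 11 (36.7%). Intron 27 of Hnrnpm, which binds GU-rich RNA, had 375.0 reads in KH-CB19 and 366.1 in DMSO. Intron 7 of Sf1, the branch-point binding protein, had 574.6 in KH-CB19 and 634.8 in DMSO, and intron 18 of Khsrp, a decay and splicing factor, had 854.4 and 802.9. Of 9 introns in genes of cleavage, polyadenylation and Integrator 5 were members, 3 of them in Papola, the poly(A) polymerase, with 101.7 to 121.6 reads in KH-CB19 and 101.6 to 122.1 in DMSO. In nonsense-mediated decay and surveillance genes it was 4 of 14, among them intron 11 of Nxf1, the mRNA export receptor, with 550.8 reads in KH-CB19 and 602.7 in DMSO.

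Translation genes were represented by ribosomal proteins, initiation factors and charging enzymes. Of 31 well-covered introns in ribosomal and translation factor genes 11 (35.5%) were members, 4 rose and none fell. For aminoacyl-tRNA synthetases 4 of 6 were members and none was called. Intron 31 of Eif4g2, an initiation factor for translation without a cap, had 1047 reads in KH-CB19 and 1066 in DMSO. Intron 31 of Eprs, the glutamyl-prolyl-tRNA synthetase, is 126 bp long and had 269.9 and 262.8. The counts of these lists are small, and no test was run on them.

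Genes of chromatin, replication and repair also held members. Of 52 well-covered introns of chromatin remodellers and histone modifiers 11 (21.2%) were members, 10 rose and 2 fell. Intron 2 of Jarid2 had 561.2 reads in KH-CB19 and 563.1 in DMSO, intron 34 of Smarca4, the ATPase of the BAF complex, 315.8 and 332.3, and intron 8 of Tet2, a 5-methylcytosine oxidase, 279.5 and 282.6. Of 39 in cell cycle and replication genes 14 (35.9%) were members, among them intron 15 of Mcm2, a subunit of the replicative helicase, with 559.3 reads in KH-CB19 and 531.1 in DMSO. Of 18 in repair genes 4 were members, with Rif1 intron 35 at 661.0 in KH-CB19 and 649.5 in DMSO. No test was run on these counts, and rises also outnumbered falls over all well-covered introns (104 and 59).

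Pluripotency genes, transport and metabolism complete the picture. Rif1 and Jarid2 were the 2 members among 9 well-covered introns of the pluripotency network, while none of the 4 well-covered introns in the list of embryonic stem cell markers was a member. Of 32 markers of the germ layers, trophoblast and fibroblasts 1 gene was in the table, with no member. Of 20 introns in nuclear pore and transport genes 8 (40.0%) were members, among them intron 13 of Kpnb1, importin beta, with 722.9 reads in KH-CB19 and 676.9 in DMSO. Of 30 in central metabolism 10 (33.3%) were members, 7 rose and 1 fell. Intron 6 of Ogt, the enzyme that adds O-GlcNAc to proteins, had 534.0 reads in KH-CB19 and 488.4 in DMSO. Of 22 in chaperone genes 7 (31.8%) were members, of 41 in ubiquitin and proteasome genes 8 (19.5%), and of 20 in motor and cytoskeletal genes 4. In vesicle trafficking it was 2 of 9, in transcription and Mediator genes 4 of 11, in growth factor signalling 4 of 15 and in protein phosphatases 2 of 4. In all, 48.7% of members lay in a gene of at least 1 list, as did 48.8% of all well-covered introns.

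Of the host genes, 245 held 1 member, 10 held 2 and 4 held 3. Those with 3 members were Nop56, a core protein of box C/D snoRNPs, Papola, Zfp57, a zinc finger protein that maintains imprints, and Pkm2, pyruvate kinase. The 3 members of Pkm2 had 1004, 387.1 and 862.5 reads in KH-CB19 and 1040, 372.5 and 813.8 in DMSO, along the gene. Those of Zfp57 had 1040, 404.3 and 620.6 in KH-CB19 and 986.7, 386.7 and 573.9 in DMSO. Introns of 1 gene share its transcripts and are no independent observations.

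Introns of the same gene did not always behave alike. Besides their members, 112 host genes held 151 other introns with 2 h values, of which 15 rose and 6 fell in the authors' deposited table at an adjusted p below 0.05 (13.9%). Of all introns with 2 h values 9.64% were called, 5.47% higher and 4.17% lower in KH-CB19. A further 28 (18.5%) lay within the ratio limit, where 24% of all introns with 2 h values did. The 151 leave out the members, which by choice lowers that share and raises the share called. Of the 55 that were well covered, 13 (23.6%) were called, as were 163 of the 693 well-covered introns that are not members. The 21 changed introns lay in 21 genes. The greatest contrast was in Npepps, a cytosolic aminopeptidase: intron 25 had 88.3 reads in KH-CB19 and 22.5 in DMSO, a log2 ratio of 1.97 with an adjusted p of 2.49e-06 in the authors' deposited table, while the member, intron 19, had 102.2 and 100.8.

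Srrm1, an SR-related splicing coactivator, showed the same with more reads. Its intron 4 had 335.6 reads in KH-CB19 and 103.9 in DMSO, a log2 ratio of 1.69 with an adjusted p of 1.62e-11 in the authors' deposited table, and its member, intron 21, 149.5 and 155.5. In Strn3, a subunit of a phosphatase complex, intron 10 had 65.4 and 23.7 reads in KH-CB19 and DMSO and the member, intron 19, 118.7 and 112.4. In Ambra1, a regulator of autophagy, intron 15 had 62.2 and 26.6, and the member, intron 17, 109.5 and 113.4. The other direction occurred in Sec61a2, a translocon subunit, where intron 8 had 21.6 reads in KH-CB19 and 56.7 in DMSO and the member, intron 11, 131.7 and 131.0. In March7, a ubiquitin ligase, intron 8 had 72.0 and 175.7, and the member, intron 10, 200.7 and 206.9. Whether the ratio of a member and that of its neighbour differ beyond the spread between libraries was not tested.

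**Figure D5:**
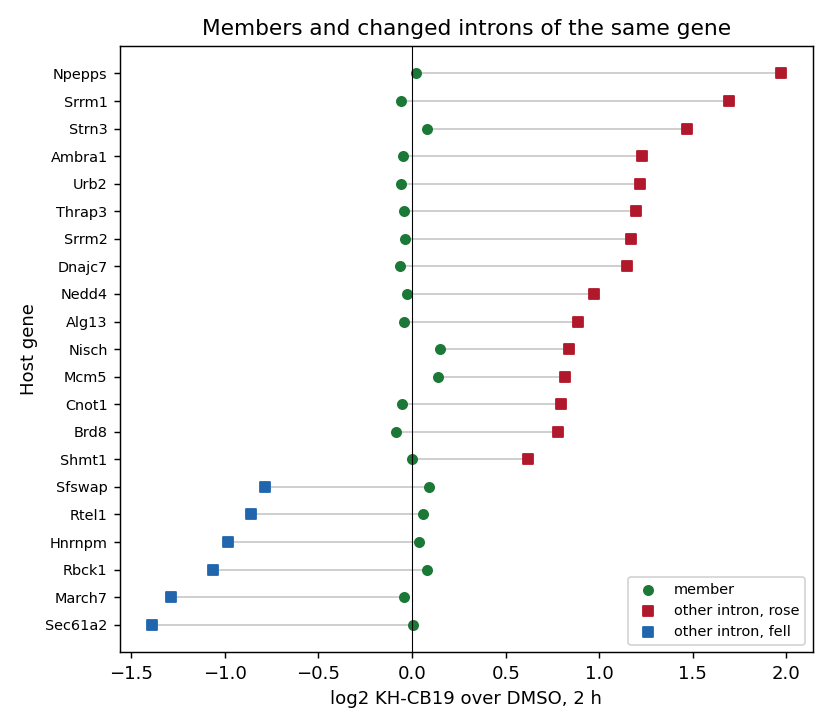
Log2 ratio of KH-CB19 to DMSO at 2 h (horizontal) for the members (circles) and the changed introns (squares) of the 21 genes that hold both, 1 gene per row. The 15 introns that rose and the 6 that fell lie on either side of members that stay within 0.15 of 0 by choice.

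The members were spread over all autosomes and the X chromosome. Their share of the well-covered introns was highest on chromosome 9 (24 of 53, 45.3%) and chromosome 3 (18 of 41, 43.9%) and lowest on chromosome 10 (5 of 36, 13.9%). No member overlapped another listed intron.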

How the data were processed

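Polyadenylated RNA of v6.5 cells was sequenced in 8 libraries (4 groups of 2). An untreated library made by ligation was left out. The submitters' processing notes name mm9 and, in no stated order, DESeq, Cufflinks 2.1.1, TopHat2 2.0.9, Bowtie 1.0.0, bedtools 2.17.0 and SAMtools 0.1.19. Their settings, the strand setting and the making of the expected counts are not given in the sources used here. Per the file headers, the authors deposited observed and expected mean counts at 0 h, the normalised mean read count (a signal) at 2 h, log2 ratios and adjusted p-values. The 0 h observed means of members summed to 76372.5 reads in KH-CB19 and 94793.5 in DMSO. These sums are not library depths, which are unknown.

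Ratios were recomputed from the means with Python 3.11.15, pandas 2.3.3, numpy 2.4.6 and SciPy 1.17.1, and plotted with matplotlib 3.10.9. They differed from the authors' deposited log2 ratios by at most 4.2e-08. A count model was planned for values per library. With group means it could not be made, so only the authors' calls at 0.05 are used. The code was tested on simulated data. Starts in the table count from 0 and are printed from 1. Introns were matched to GENCODE M21 (GRCm38) by gene symbol, chromosome, strand and exact length, with no coordinate carried between builds. Where several transcripts held an intron, a protein-coding one with most exons was used. The members, gene lists and comparisons were chosen with earlier results of these data known. Introns were named by rule: the 10 with most reads, up to 3 per list, extremes of length, excess and 0 h ratio, those nearest the limits and the ratio of 1, genes with most members, and up to 6 genes with a changed intron. Sfrs18, Ogt, Tet2, Yap1 and Taf1d fall outside it and were picked with their values known. Not every intron under the rule is reported here. Alternatives were other minimums, limits, pseudocounts and centrings.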

Additional observations from a re-analysis of the deposited data

How the results depend on the processing

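The number of members was 530 with a minimum of 50 reads, 115 with a minimum of 200 and 495 with a limit of 0.30 on the log2 ratio, against 277. With the minimum of 200, the share above expectation at 0 h in KH-CB19 was 100%, as it was with the minimum applied to each group, and the median excess was 4.01 times in KH-CB19 and 4.20 times in DMSO. The share of host genes with a changed intron was then 4.67%, against 8.11%. The centred 0 h log2 ratio of members had a median of -0.00028 when centred on introns with 2 h values, and of 0.0037 when observed-to-expected ratios were compared, against -0.045, so that its sign turned in the last of these. The other 75 values, which include the median length and the share of first introns, stayed within their 95% binomial interval or within 1.5 times the count. That interval takes introns as independent, which introns of 1 gene are not, and the settings share introns. It serves as a yardstick only and does not measure the spread between libraries. No paired analysis was possible because the table holds group means only. For the same reason no library could be left out in turn. Depth limits the 0 h ratios of introns with few expected reads.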
